A study of Arabidopsis thaliana with 6 samples.

Results

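The transcriptome of shoot apices that lack full VAL1 function was compared with that of the wild type (WT), gene by gene. The *val1* plants carry *val1-2*, an insertion allele in the Columbia background, and the WT plants are Col-0. Both were grown for 6 wk at 22 °C under short days (SD, 8 h light and 16 h dark), and RNA was taken from 0.5 g of dissected apices for each library. Each genotype has 2 biological replicates, so the comparison rests on 4 of the 6 libraries of the series. The other 2 libraries are labelled *val2* (*val2-1*). They shared the filter, the scaling and the estimate of the spread, and their values are given beside a few genes. Where they are not given, a change may be shared by those libraries or not. All nuclear genes with an Arabidopsis locus number that passed a filter on low counts were included, which gave 21095 of the 24186 nuclear genes in the table (24292 genes with organelle genes). *val1-2* is 1 insertion allele, and the dissected apex holds young leaves and stem tissue beside the meristem, so fewer cells of a type and less RNA per cell cannot be told apart in any value below.

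VAL1 (also named HSI2) is a transcriptional repressor with a plant-specific B3 DNA-binding domain. Such domains read the RY motif, CATGCA or its reverse complement TGCATG. VAL proteins bring histone deacetylases and Polycomb complexes to their targets, and they are best known for closing seed maturation genes in seedlings and for silencing the floral repressor *FLC*. The sites through which the study followed VAL1 binding in vitro are shown here because they carry that motif inside genes that were higher in *val1*. They are probe strands from *BOP1* and *BOP2*, a pair of genes that mark the boundary between the meristem and its organs, with the RY motif in capitals.
BOP1 probe: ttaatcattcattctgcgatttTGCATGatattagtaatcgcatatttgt
BOP2 probe: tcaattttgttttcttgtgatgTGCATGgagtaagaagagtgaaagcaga
In TAIR10.1 each probe matched 1 place in the nuclear genome, chr3:21148745-21148794 for *BOP1* and chr2:17239652-17239701 for *BOP2*, and each place lies in an intron of its gene. As printed, the *BOP1* probe is on the coding strand, and the *BOP2* probe is on the strand opposite to its gene.

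The 4 libraries had between 22635808 and 33474422 counts. Replicates were close to each other (Pearson r across genes 0.982 in *val1* and 0.984 in WT), and r between a *val1* and a WT library was between 0.927 and 0.939. The first principal component of the 6 libraries held 58.8% of the variance and set both *val1* libraries apart from the other 4. *VAL1* itself (AT2G30470, chr2:12980428-12985277, minus strand) had 12.5 and 15.7 CPM in *val1*, against 40.3 and 55.4 CPM in WT (log2 fold change -1.76, standard error 0.17, adjusted p = 5.16e-05, edgeR's quasi-likelihood test). In the libraries labelled *val2*, *VAL1* had 32.7 and 39.0 CPM. *VAL2* had 149.8 and 163.8 CPM in the libraries labelled *val2*, 36.1 and 39.1 CPM in *val1*, and 39.9 and 40.9 CPM in WT, so the gene named in that label was higher, not lower, in those libraries, and their values below are those of libraries so labelled. The *VAL1* transcript was reduced in both *val1* libraries but not absent, and reads from either side of an insertion still count toward the gene. Of the 10 tested genes on each side of *VAL1*, 2 were upregulated and 3 were downregulated, where 5.91% and 9.83% of all tested genes were. For 25 tested genes, 1 library of a genotype was listed at 0 and its replicate had at least 100 counts, and 3 of them were called. The jasmonate regulator *MYC2* was 1 of the 25, with 0 and 2933 counts in *val1*, against 110 and 12 counts in WT, so its level could not be compared.

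Over the genome 1246 genes were upregulated in *val1*, 5.91% of those tested, and 2074 were downregulated, 9.83% of those tested. A call required an adjusted p below 0.05 over all tested genes and at least a 2-fold change. Without the fold threshold, 4988 genes (23.6%) were higher and 4673 (22.2%) were lower. Of these, 276 rose and 615 fell at least 4-fold, 112 rose and 197 fell at least 8-fold, and 60 rose and 85 fell at least 16-fold. Direction went with expression level. Among the 5274 genes with the highest mean CPM (counts scaled to a common library size), 1.78% were upregulated and 13.3% were downregulated, whereas among the 5274 with the lowest mean CPM the shares were 11.1% and 12.5%.

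**Figure D1:**
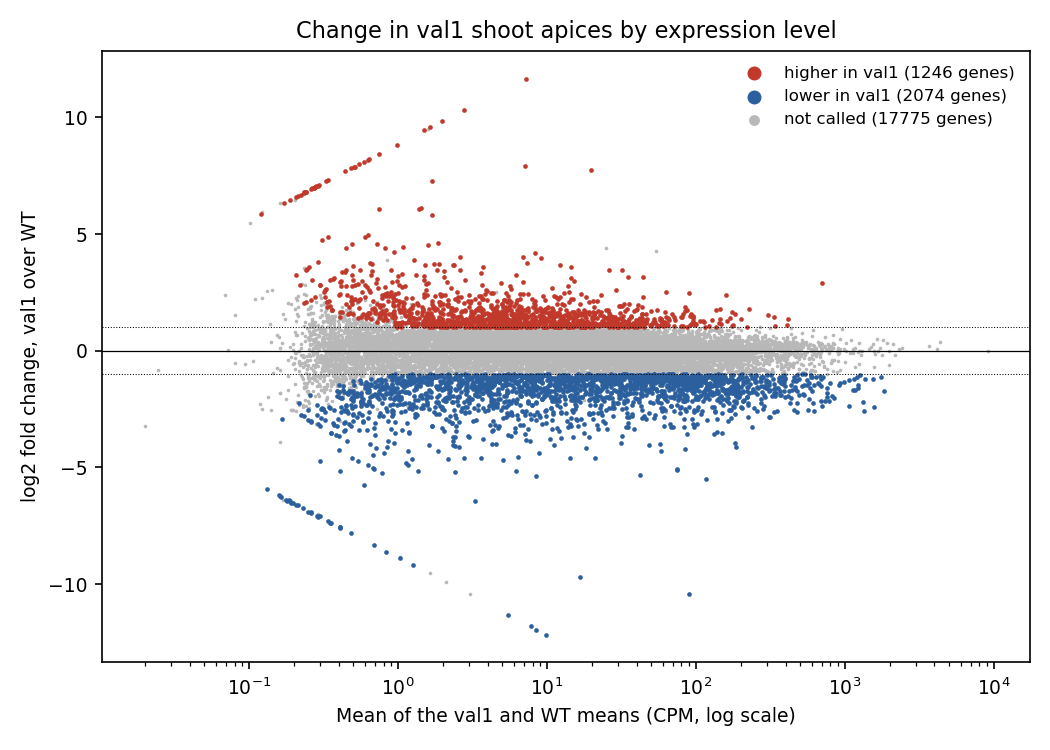
Each point is 1 of the 21095 tested genes, with the mean expression of both genotypes in CPM on a log axis and the log2 fold change of *val1* over WT on the vertical axis. Dotted lines mark a 2-fold change. Among abundant genes the called points lie mostly below 0 (1.78% upregulated and 13.3% downregulated of the 5274 most abundant), and the points along the straight outer lines are genes listed at 0 in both libraries of a genotype, whose plotted fold change depends on the fit's prior count.

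The balance of directions depended on the scaling. Scaling by library size alone gave 1975 upregulated and 1576 downregulated genes, so that the downregulated share was 44.4% in place of 62.5%, and the overall median log2 fold change was 0.25 in place of 0.04. The TPM scales, where 14818 genes were tested with limma, gave downregulated shares of 52.6% on log2(TPM + 1) and 47.9% on log2(TPM + 0.1), with the gene set, the test and the scaling all changed. The calls were spread over the genome, with between 5.59% and 6.27% of the tested genes upregulated and between 8.93% and 11% downregulated on each of the 5 chromosomes.

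The largest rise among genes with a mean of at least 10 CPM was that of *AT1G02770* (chr1:604873-606708), which is annotated only as an uncharacterized protein. It had 37.0 and 41.9 CPM in *val1*, against 0.199 and 0.162 CPM in WT (log2 fold change 7.76, standard error 0.25, adjusted p = 5.19e-07). With 0.215 and 0.0681 CPM in the libraries labelled *val2*, this gene was high in the *val1* libraries and near 0 in the other 4. *AGO9*, an argonaute that works with small RNAs in ovules, had 21.1 and 16.2 CPM in *val1*, against 2.74 and 2.97 CPM in WT (log2 fold change 2.70, standard error 0.19, adjusted p = 9.19e-06), and 2.64 and 3.54 CPM in the libraries labelled *val2*. *AT1G16705*, which encodes a protein related to p300/CBP acetyltransferases, had 24.1 and 21.6 CPM in *val1*, against 2.03 and 1.58 CPM in WT (log2 fold change 3.67).

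Others among the 12 largest rises include genes of defense and metabolism. *LURP1* takes part in basal resistance to downy mildew and had 25.2 and 28.1 CPM in *val1*, against 2.90 and 1.62 CPM in WT (log2 fold change 3.58). The neighbouring genes *PCC1* and *AT3G22235* code for small cysteine-rich proteins of the stress response. *PCC1* had 86.4 and 72.0 CPM in *val1*, against 11 and 6.79 CPM in WT, and *AT3G22235* had 69.1 and 57.5 CPM in *val1*, against 7.39 and 6.66 CPM in WT. In the libraries labelled *val2* the levels were 95.1 and 80.7 CPM for *PCC1* and 66.0 and 55.8 CPM for *AT3G22235*, and the difference of *val1* from these libraries did not pass the test (adjusted p = 0.529 and 0.750). *AT5MAT*, which adds malonate to anthocyanins, had 27.4 and 24.6 CPM in *val1*, against 3.14 and 2.84 CPM in WT (log2 fold change 3.12). *AT3G63210*, annotated as a mediator of dormancy controlled by abscisic acid, had 25.8 and 28.2 CPM in *val1*, against 4.01 and 2.88 CPM in WT, and *AT3G10190*, a calcium-binding EF-hand protein, had 24.9 and 23.2 CPM in *val1*, against 3.65 and 3.33 CPM in WT. *AT1G19960*, annotated in the reference as a transcription factor, had 65.9 and 51.7 CPM in *val1*, against 6.15 and 4.69 CPM in WT. It had 48.8 and 36.3 CPM in the libraries labelled *val2*, whose difference from *val1* did not pass the test (adjusted p = 0.0569). Both *val1* libraries lay above both WT libraries in each of these genes, which the rule for naming them required.

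The largest rise in absolute level was that of *ESM1*, which directs the breakdown of glucosinolates. *ESM1* (chr3:4729399-4731847) had 1220.3 and 1245 CPM in *val1*, against 175 and 155 CPM in WT (log2 fold change 2.90, standard error 0.09, adjusted p = 5.19e-07). With 897 and 799 CPM, the libraries labelled *val2* were far above WT as well, and *val1* was higher than they were (log2 fold change 0.54, adjusted p = 0.00116). By the same measure followed *SBP2*, a selenium-binding protein, with 597 and 605 CPM in *val1*, against 237 and 232 CPM in WT. *MS2*, a methionine synthase, had 455 and 518 CPM in *val1*, against 174 and 188 CPM in WT, and 454 and 395 CPM in the libraries labelled *val2*. *EXT3*, an extensin of the cell wall, had 433 and 491 CPM in *val1*, against 224 and 215 CPM in WT, but its log2 fold change of 1.07 was under 1 without the second *val1* replicate. *GRP9*, a glycine-rich protein, had 263 and 272 CPM in *val1*, against 68.3 and 35.8 CPM in WT (log2 fold change 2.37, standard error 0.33, adjusted p = 0.000416), and *AT5G20700*, of the DUF581 family, had 487 and 413 CPM in *val1*, against 164 and 150.4 CPM in WT.

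Among the 12 largest falls were regulators and enzymes of wound and abscisic acid responses. *ABR1*, an AP2/ERF repressor of abscisic acid responses (chr5:25891449-25893888), had 4.62 and 5.48 CPM in *val1*, against 182 and 276 CPM in WT (log2 fold change -5.50, standard error 0.25, adjusted p = 1.28e-06). *RAP2.6*, another stress-induced ERF, had 0.405 and 7.82 CPM in *val1*, against 85.7 and 205 CPM in WT, and its replicates were uneven (log2 fold change -5.07, standard error 0.75, adjusted p = 0.000600). *CYP94B1*, which oxidizes the active jasmonate JA-Ile, had 0.648 and 2.56 CPM in *val1*, against 28.7 and 52.2 CPM in WT (log2 fold change -4.59). The genes *AT2G38240* and *AT5G05600* encode 2-oxoglutarate-dependent oxygenases, and they had log2 fold changes of -5.11 and -4.11. For the second the levels were 14.2 and 26.4 CPM, against 257 and 447 CPM, *val1* first. *LTI30*, a dehydrin induced by cold and drought, had 4.21 and 12.8 CPM in *val1*, against 124 and 197 CPM in WT.

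*MLO12*, of the family whose members permit powdery mildew entry, had 1.46 and 2.37 CPM in *val1*, against 27.9 and 41.6 CPM in WT. *MIOX2*, a myo-inositol oxygenase that opens the path to cell wall sugars, had 3.24 and 7.66 CPM in *val1*, against 78.6 and 142 CPM in WT. The leucine-rich repeat kinase gene *AT1G51820* had 1.66 and 0.714 CPM in *val1*, against 27.0 and 28.2 CPM in WT, and *AT5G01380*, with a homeodomain-like fold, had 1.5 and 2.56 CPM in *val1*, against 64.1 and 101 CPM in WT. The libraries labelled *val2* lay between *val1* and WT in *ABR1* (67.5 and 92.2 CPM), *LTI30* (61.2 and 84.0 CPM) and *MIOX2* (16.2 and 23.3 CPM), and *val1* was lower than they were in each (adjusted p = 6.53e-06, 0.000492 and 0.00618).

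**Figure D2:**
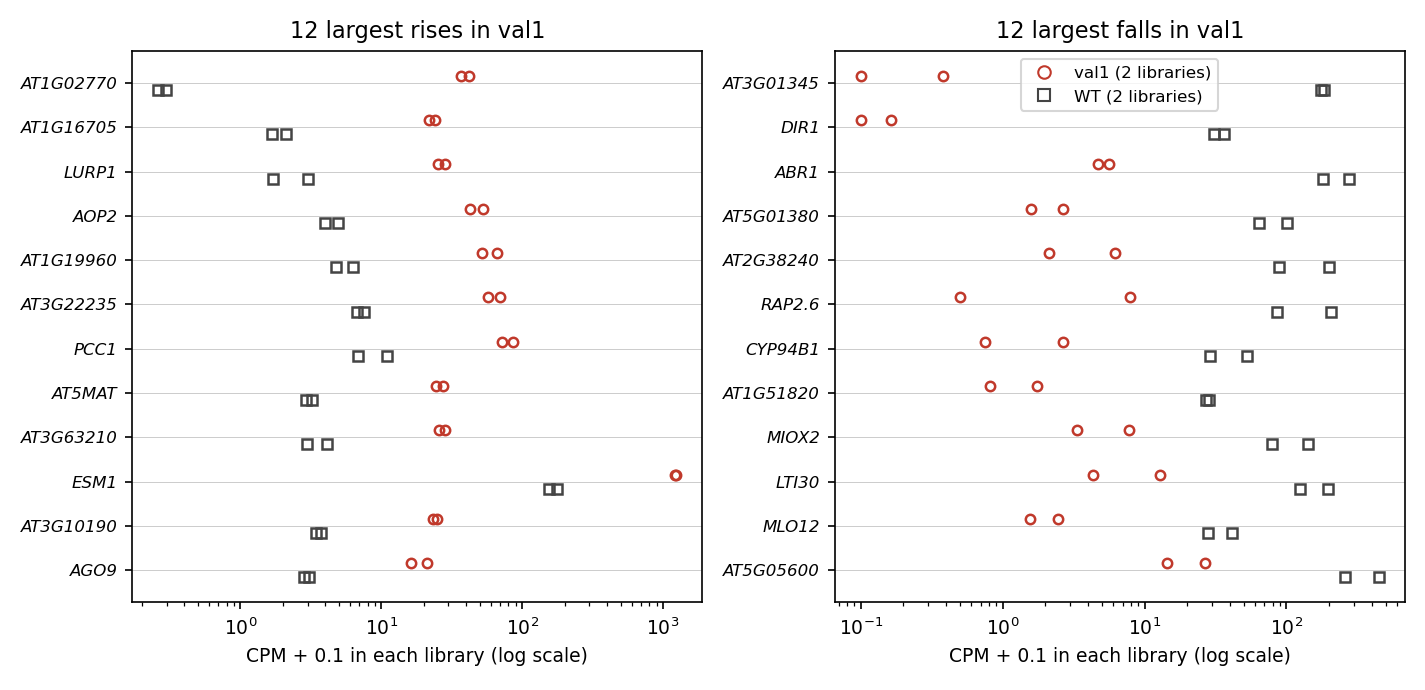
The 12 largest rises and the 12 largest falls in *val1* by fold change, among called genes with a mean of at least 10 CPM. Each symbol is 1 library, with circles for *val1* and squares for WT, on a log axis of CPM + 0.1. Only genes whose genotypes did not overlap were eligible, and those shown run from *AT1G02770* (7.76 on the log2 scale) to *AT3G01345* (-10.43).

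The largest fall by absolute level was that of *AT1G79245*, annotated as a transcribed pseudogene, which had 508 and 468 CPM in *val1*, against 2824 and 2435 CPM in WT (log2 fold change -2.43, standard error 0.17, adjusted p = 7.77e-06). *ERD10*, a dehydrin, had 844 and 879 CPM in *val1*, against 2573 and 3051 CPM in WT (log2 fold change -1.71, standard error 0.10, adjusted p = 3.13e-06). *ERD7*, induced early by dehydration, had 379.5 and 394 CPM in *val1*, against 2133 and 2484 CPM in WT (log2 fold change -2.58). *PEN3*, an ABC transporter that exports defense compounds at sites of fungal entry, had 433 and 516 CPM in *val1*, against 2158 and 2169.8 CPM in WT (log2 fold change -2.19). *ADC2*, an arginine decarboxylase that makes the polyamine precursor putrescine, had 959.7 and 914 CPM in *val1*, against 2027 and 2311 CPM in WT, but scaled by library size alone it fell short of 2-fold. The touch genes *TCH3* and *TCH4* and the lipoxygenase gene *LOX3* are the others of these 8 and are described with their pathways.

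A gene was counted as switched on or off when both libraries of a genotype had at most 3 counts and both of the other had at least 30. By this rule 16 genes were on in *val1* and 11 were off. *IDH-III*, a subunit of isocitrate dehydrogenase, had 363 and 415 counts in *val1*, against 0 and 3 counts in WT, a ratio of 262 with a 95% counting interval from 89.4 to 1274. *AT1G03106* had 139 and 168 counts in *val1*, against 0 and 0 counts in WT, at least 103-fold higher when the WT pair is set at a floor of 3 counts together. *AT3G02910*, an AIG2-like gene, had 108 and 109 counts in *val1*, against 0 and 0 counts in WT, at least 73.1-fold higher by the same floor. *AT3G12470*, a ribonuclease H-like gene, had 86 and 96 counts in *val1*, against 3 and 0 counts in WT (ratio 61.3, interval 20.7 to 300.2). These intervals cover counting error only, and since the deposited counts hold genes listed at 0 in 1 replicate and well covered in the other, a 0 in both may also be an uneven assignment of reads, which was not tested.

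Of the genes switched off, *DIR1* is a lipid transfer protein needed for the long-distance signal of systemic acquired resistance. *DIR1* (chr5:19646028-19646840) had 0 and 2 counts in *val1*, against 916 and 951 counts in WT, and its WT level was 923 times its *val1* level (interval 255 to 7630.3). *AT4G02720* had 0 and 0 counts in *val1*, against 435 and 688 counts in WT, at least 370.3-fold lower in *val1*. Both genes were also at 0 counts in both libraries labelled *val2*, as *AT3G01345* nearly was (7 and 0 counts in *val1* and 2 and 0 counts there, against 4662 and 5450 counts in WT). *AT3G01345* is an uncharacterized protein gene on chromosome 3 (chr3:129138-130749). Low counts of these 3 genes were thus shared by the *val1* libraries and the libraries labelled *val2*. By contrast *AT1G52920*, annotated as a G protein coupled receptor, had 0 and 0 counts in *val1*, against 70 and 69 counts in WT, and 99 and 83 counts in the libraries labelled *val2* (at least 45.8-fold lower in *val1* than in WT). *AT1G17860*, a Kunitz-type protease inhibitor, had 0 and 0 counts in *val1*, against 174 and 462 counts in WT, with WT replicates that differed widely.

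Of 483 tested long non-coding RNA genes, 26 were upregulated (5.38%) and 49 were downregulated (10.1%), and of 20099 protein-coding genes 5.84% were upregulated and 9.69% were downregulated. Of 181 pseudogenes, 11% were upregulated and 22.1% were downregulated. The largest rises among non-coding genes were those of *AT1G08592* and *AT2G08780*, both long non-coding RNAs, with 3.04 and 3.5 CPM in *val1*, against 0 and 0 CPM in WT for the first and 2.71 and 4.05 CPM in *val1*, against 0.0397 and 0 CPM in WT for the second. *PSEUDOSRKA*, the remnant of a self-incompatibility receptor gene, had 3.28 and 2.14 CPM in *val1*, against 0.0794 and 0 CPM in WT. The largest falls were those of *AT1G05187* (log2 fold change -4.83), *AT3G30122* (-3.76) and *AT1G63040* (-3.49).

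Gene lists show how these changes fall on known pathways. Each list is given as the number of its tested members that were called, beside 5.91% upregulated and 9.83% downregulated over all genes, and by its median log2 fold change, beside 0.04 over all genes. Counts at an adjusted p below 0.05 alone stand beside 23.6% higher and 22.2% lower over all genes. The lists were drawn up with results of these libraries known, so they describe the data and test nothing.

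**Figure D3:**
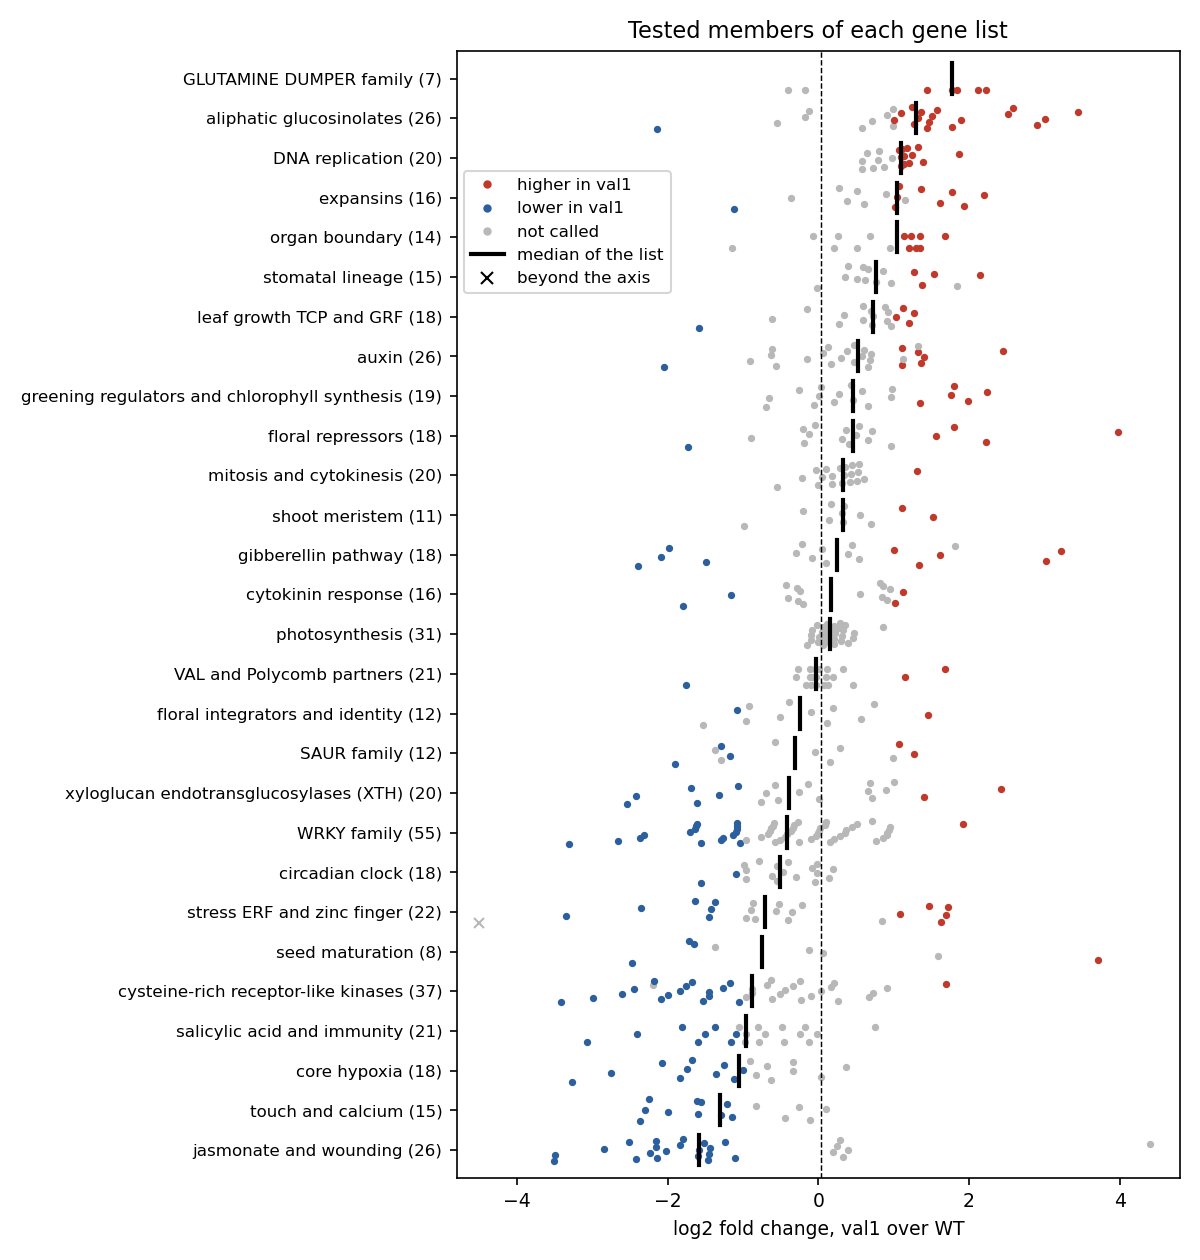
Log2 fold change of *val1* over WT of every tested member of the 28 lists, with the number tested in brackets. Black bars are list medians, the dashed line is the median of all genes (0.04), and crosses are members beyond the axis. Medians run from 1.78 for the GLUTAMINE DUMPER family to -1.59 for jasmonate and wounding.

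Jasmonate is made from membrane lipids by lipoxygenase, allene oxide synthase and cyclase and OPR3, is joined to isoleucine by JAR1, and acts by removing JAZ repressors, whose genes it also switches on. Of 26 tested genes of jasmonate synthesis, signaling and breakdown, 20 were downregulated and 0 were upregulated, with a median log2 fold change of -1.59 (1 upregulated without *val1* replicate 1). Along the synthesis path, *LOX3* had 649 and 584 CPM in *val1*, against 1799 and 1899 CPM in WT (log2 fold change -1.58, standard error 0.08, adjusted p = 1.71e-06). *AOS*, the allene oxide synthase, had 471 and 493 CPM in *val1*, against 1284 and 1382 CPM in WT (log2 fold change -1.47). Its successors *AOC1* and *AOC2* fell most, with 19.2 and 28.6 CPM, against 235 and 312 CPM for *AOC1* (*val1* first; log2 fold change -3.51, and -3.5 for *AOC2*). *AOC1* and *AOC2* are closely related neighbours, so reads may have been divided between them. *OPR3* had 248 and 261 CPM in *val1*, against 1041 and 1209.9 CPM in WT (log2 fold change -2.14). Genes for each step from lipoxygenase to OPR3 were thus downregulated, while the isoform genes *LOX2* and *AOC4* were not called.

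The JAZ genes on the list, which does not hold the whole family, followed the same direction. All 9 listed JAZ genes were downregulated, from *JAZ5* (log2 fold change -1.11) to *JAZ8*, which had 43.4 and 40.3 CPM in *val1*, against 218 and 230.0 CPM in WT (log2 fold change -2.42, standard error 0.09, adjusted p = 6.73e-07). The cytochrome P450 genes for JA-Ile breakdown, which jasmonate also induces, fell as well: *CYP94C1* had 72.4 and 81.6 CPM in *val1*, against 489 and 619 CPM in WT (log2 fold change -2.85), and *CYP94B3* had 49.2 and 49.95 CPM in *val1*, against 266 and 301 CPM in WT (log2 fold change -2.52). Members that were not called include *COI1*, the receptor (log2 fold change 0.32), *LOX2* (0.29) and the late wound genes *VSP1* and *VSP2* (0.19 and 0.40).

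**Figure D4:**
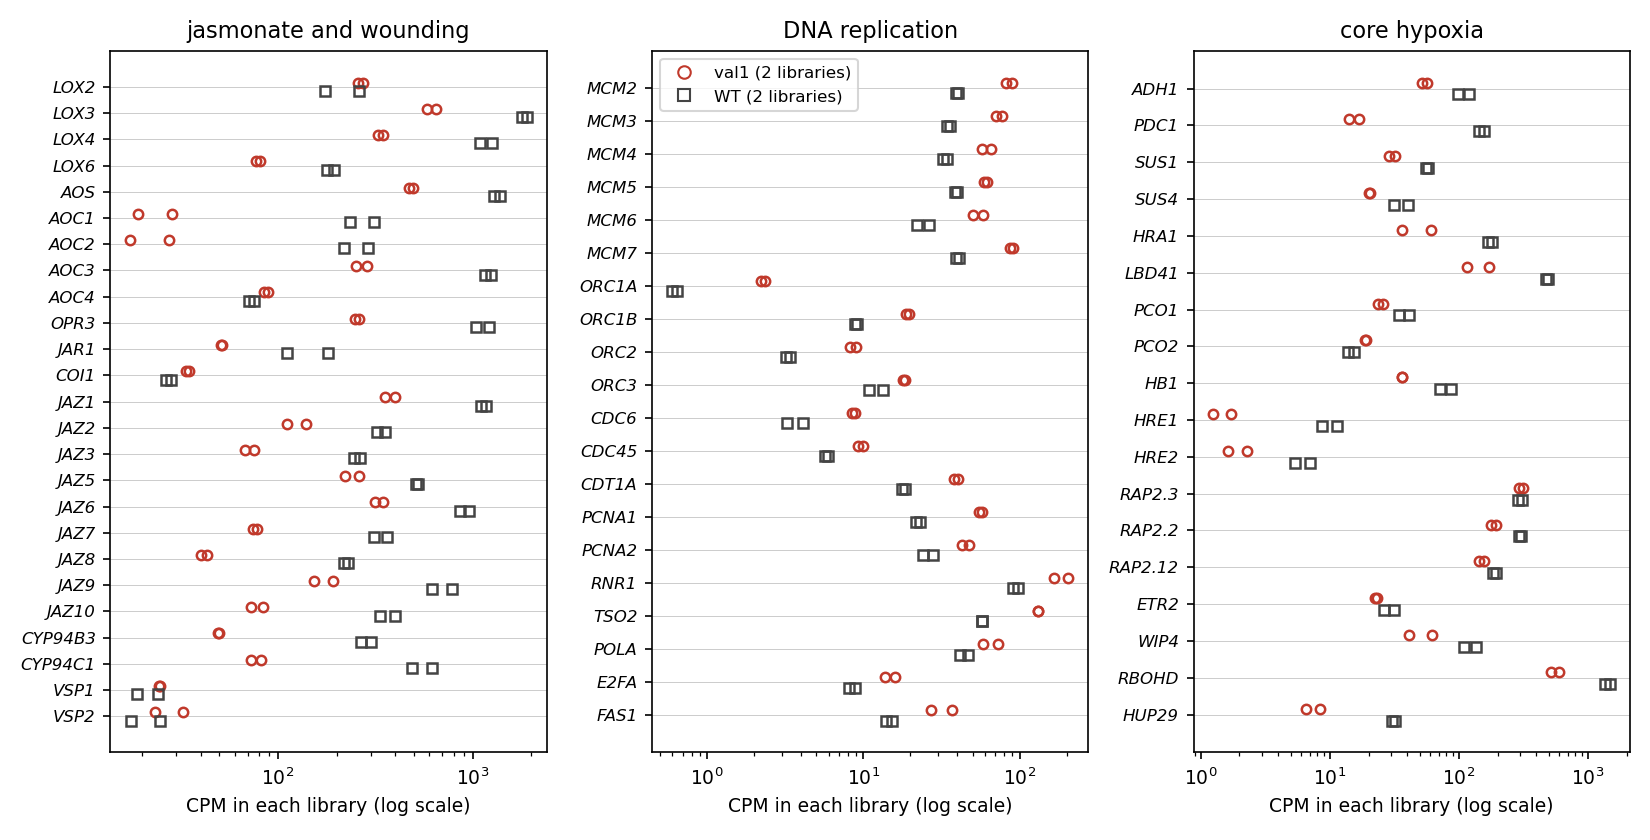
Expression in each library of the tested members of 3 lists, in CPM on log axes, with circles for *val1* and squares for WT. *MYC2* is not drawn. Most jasmonate genes (20 called lower) and hypoxia genes (10 called lower) sit to the left in *val1*, and all 20 DNA replication genes sit to the right.

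Touch and calcium genes respond within minutes to bending, wounding or handling. Of 15 tested, 10 were downregulated and 0 were upregulated (median -1.3). *TCH3*, a calmodulin-like protein, had 333 and 357 CPM in *val1*, against 1720.4 and 1847 CPM in WT (log2 fold change -2.37, standard error 0.08, adjusted p = 6.73e-07). *TCH4*, a xyloglucan endotransglucosylase, had 1030.0 and 1156 CPM in *val1*, against 2375 and 2455 CPM in WT, but its log2 fold change of -1.14 was under 1 in size with scaling by library size alone and on TPM. Other falls were those of *CML11* (log2 fold change -2.24), *CML38* (-2.0) and the calcium pump gene *ACA12* (-2.30).

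Of 18 tested core hypoxia genes, which oxygen shortage and wounding both induce, 10 were downregulated and 0 were upregulated (median -1.06). *PDC1*, the pyruvate decarboxylase of ethanolic fermentation, had 14.2 and 17.0 CPM in *val1*, against 145 and 157 CPM in WT (log2 fold change -3.27, standard error 0.16, adjusted p = 1.65e-06). *HRE1*, an ERF that prolongs the low-oxygen response, had 1.26 and 1.72 CPM in *val1*, against 8.78 and 11.4 CPM in WT (log2 fold change -2.75). *HUP29*, a small protein of unknown function, had 8.38 and 6.55 CPM in *val1*, against 30.5 and 32.1 CPM in WT, and the repressor *HRA1* had 61.5 and 36.7 CPM in *val1*, against 182 and 168 CPM in WT. The oxygen-regulated ERF *RAP2.3* (log2 fold change 0.03), whose protein rather than transcript is controlled by oxygen, was not called.

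Of 21 tested genes of salicylic acid and immunity, 8 were downregulated and 0 were upregulated (median -0.96). The flagellin receptor gene *FLS2* had 26.5 and 39.0 CPM in *val1*, against 129.7 and 217 CPM in WT (log2 fold change -2.40, standard error 0.25, adjusted p = 8.27e-05). *NHL10*, a marker of the response to bacterial patterns, had 0.567 and 0.519 CPM in *val1*, against 4.65 and 4.49 CPM in WT (log2 fold change -3.07). *BIK1*, a kinase that relays the signal of such receptors, had 14.7 and 17.3 CPM in *val1*, against 49.2 and 63.3 CPM in WT, and *SAG101*, a partner of EDS1, had 31.1 and 36.7 CPM in *val1*, against 105 and 101 CPM in WT. The salicylic acid marker *PR1* was not called (log2 fold change 0.76), nor was the synthesis gene *ICS1* (-0.24).

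Among transcription factors of the WRKY family, 17 of 55 were downregulated and 1 was upregulated (median -0.41). *WRKY18* had 224 and 229 CPM in *val1*, against 1125 and 1226 CPM in WT (log2 fold change -2.37, standard error 0.08, adjusted p = 5.92e-07), and *WRKY28* had 4.17 and 6.88 CPM in *val1*, against 28.5 and 41.7 CPM in WT. The 1 upregulated member was *WRKY54*, a negative regulator of salicylic acid synthesis. It had 49.3 and 48.7 CPM in *val1*, against 13.4 and 12.5 CPM in WT (log2 fold change 1.92, standard error 0.10, adjusted p = 1.84e-06), and 70.6 and 60.6 CPM in the libraries labelled *val2*. With scaling by library size alone 10 were downregulated and 6 were upregulated, and leaving out 1 library gave between 2 and 4 upregulated and between 14 and 19 downregulated. Of 37 cysteine-rich receptor-like kinases, 16 were downregulated and 1 was upregulated (median -0.89). On TPM 23 of them were tested, of which 7 were downregulated on log2(TPM + 1) and 9 on log2(TPM + 0.1). *CRK41* had 5.83 and 6.26 CPM in *val1*, against 29.9 and 25.1 CPM in WT (log2 fold change -2.18), while *CRK4* rose (log2 fold change 1.69), a call that was lost when any 1 library was left out.

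Stress-induced ERF and zinc finger genes went both ways. Of 22 tested, 5 were upregulated and 6 were downregulated (median -0.70). The cold regulators *DREB1A*, *DREB1B* and *DREB1C* (also named *CBF3*, *CBF1* and *CBF2*) are closely related neighbours on chromosome 4, between which reads may have been divided, and all were upregulated. *DREB1C* had 79.3 and 74.0 CPM in *val1*, against 23.5 and 23.0 CPM in WT (log2 fold change 1.72, standard error 0.15, adjusted p = 2.43e-05), with log2 fold changes of 1.63 for *DREB1B* and 1.70 for *DREB1A*. Their drought counterpart *DREB2A* fell (log2 fold change -1.46). *ANAC055*, a jasmonate-induced NAC factor, had 1.70 and 2.14 CPM in *val1*, against 17.6 and 21.8 CPM in WT (log2 fold change -3.35), and *ZAT6* had 23.7 and 20.7 CPM in *val1*, against 99.7 and 128 CPM in WT (log2 fold change -2.36). *ERF5* rose (log2 fold change 1.47). *ERF105* had 0 counts in both *val1* libraries, against 102 and 2 counts in WT, and was not called.

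Organ boundary genes keep the cells between the meristem and young organs small and restrict their growth. Of 14 tested, 7 were upregulated and 0 were downregulated (median 1.04). The largest rise was not in *BOP1* (log2 fold change 1.35) or *BOP2* (1.29) but in *LSH3*, a light-dependent short hypocotyls family gene expressed at boundaries. *LSH3* had 32.2 and 29.6 CPM in *val1*, against 9.77 and 9.47 CPM in WT (log2 fold change 1.68, standard error 0.16, adjusted p = 4.26e-05). The homeobox gene *ATH1*, which acts with the BOP proteins, had 64.8 and 61.2 CPM in *val1*, against 27.0 and 26.5 CPM in WT (log2 fold change 1.24, standard error 0.09, adjusted p = 1.19e-05). All 3 CUC genes, which separate organs, were called, at low levels: *CUC2* had 3.20 and 2.50 CPM in *val1*, against 1.23 and 1.00 CPM in WT (log2 fold change 1.35), with log2 fold changes of 1.14 for *CUC1* and 1.2 for *CUC3*. *LSH4* (0.95) and *KNAT2* (0.69) were higher with less than a 2-fold change, and *LOB* (-0.07) and *KNAT6* (0.26) did not pass the test. *JLO*, a relative of *LOB*, had 0.648 and 0.908 CPM in *val1*, against 1.67 and 1.81 CPM in WT and missed the threshold (log2 fold change -1.14, standard error 0.44, adjusted p = 0.0603), and 1 member of the list was downregulated when only the 4 libraries were fitted, when counts were halved and with the replicate number as a block.

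In the meristem list, 2 of 11 tested genes were upregulated and 0 were downregulated (median 0.33), with 1 downregulated without *val1* replicate 1. *PNF*, a homeobox gene of the shoot apex, had 15.4 and 16.1 CPM in *val1*, against 5.72 and 5.27 CPM in WT (log2 fold change 1.52, standard error 0.20, adjusted p = 0.000300). *HAM2*, which maintains the meristem, had 32.8 and 35.5 CPM in *val1*, against 16.2 and 15.3 CPM in WT (log2 fold change 1.12). The defining meristem gene *STM* did not pass the test (log2 fold change 0.16), with 65.3 and 64.8 CPM, against 58.3 and 58.0 CPM, *val1* first, and *KNAT1* did not either (0.14). *WUS*, *CLV3* and *UFO*, which few cells express, were not tested.

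TCP and GRF factors set how long leaf cells divide. Of 18, 4 were upregulated and 1 was downregulated (median 0.72). *TCP4* had 32.2 and 35.1 CPM in *val1*, against 13.3 and 14.5 CPM in WT (log2 fold change 1.27, standard error 0.10, adjusted p = 1.31e-05), and *GRF4* had 37.8 and 34.2 CPM in *val1*, against 16.9 and 16.1 CPM in WT (log2 fold change 1.13). *GRF8* was the exception, with 0.932 and 1.1 CPM in *val1*, against 2.38 and 3.72 CPM in WT (log2 fold change -1.58), a fall that was under 2-fold on log2(TPM + 1). Scaled by library size alone, 8 TCP and GRF genes were upregulated.

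In the stomatal lineage, 4 of 15 were upregulated and 0 were downregulated (median 0.77), with 7 upregulated under scaling by library size alone. *SPCH*, which starts the lineage, had 18.8 and 18.9 CPM in *val1*, against 7.58 and 8.01 CPM in WT (log2 fold change 1.27, standard error 0.12, adjusted p = 3.57e-05). The secreted peptide genes *EPF2* and *EPFL9* act in opposite directions on stomatal density, and both rose. *EPF2* had 4.94 and 3.31 CPM in *val1*, against 0.874 and 0.969 CPM in WT, and *EPFL9* had 11.6 and 11.3 CPM in *val1*, against 4.25 and 4.56 CPM in WT. *BASL*, which marks asymmetric divisions, had 5.99 and 4.93 CPM in *val1*, against 1.99 and 1.78 CPM in WT. The regulators *FAMA* (0.59), which acts late in the lineage, and *SCRM* (0.66), a partner of SPCH, were higher with under 2-fold changes, and *HDG2* (-0.02) did not pass the test.

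Genes of DNA replication, which are transcribed before S phase, rose as a group. All 20 tested members were higher at an adjusted p below 0.05, where 23.6% of all genes were. Of these, 12 were upregulated by at least 2-fold (median 1.1, range 0.58 to 1.86). The largest changes included origin recognition and licensing genes: *ORC1A* had 2.35 and 2.21 CPM in *val1*, against 0.596 and 0.646 CPM in WT (log2 fold change 1.86, standard error 0.33, adjusted p = 0.00178), *ORC2* had 8.22 and 9.02 CPM in *val1*, against 3.41 and 3.20 CPM in WT, and *CDC6* had 8.47 and 8.89 CPM in *val1*, against 4.09 and 3.23 CPM in WT. The clamp gene *PCNA1* had 57.5 and 55.3 CPM in *val1*, against 23.1 and 21.8 CPM in WT (log2 fold change 1.33, standard error 0.09, adjusted p = 5.22e-06), and *TSO2*, which supplies deoxynucleotides, had 132 and 132 CPM in *val1*, against 57.4 and 57.5 CPM in WT. The helicase subunit genes *MCM2*, *MCM3*, *MCM6* and *MCM7* were also called, with log2 fold changes from 1.06 to 1.17.

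Of 20 tested genes of mitosis and cytokinesis, 1 was upregulated and 0 were downregulated (median 0.33). At an adjusted p below 0.05 alone, 11 were higher and 1 was lower, and 8 did not pass. Over all genes 23.6% were higher and 22.2% were lower. The called gene was *CYCA1;1*, with 24.7 and 24.1 CPM in *val1*, against 10.2 and 9.47 CPM in WT (log2 fold change 1.31, standard error 0.12, adjusted p = 3.06e-05). The B-type cyclin gene *CYCB1;1* was higher by 0.44 on the log2 scale, and the kinase genes *CDKB2;1* and *CDKB2;2* did not pass the test (0.19 and 0.18). The difference between these lists was not tested.

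Among floral repressors, 4 of 18 were upregulated (*FLC*, *MAF4*, *MAF5* and *AGL15*) and 1 was downregulated (median 0.46), with 2 downregulated without *val1* replicate 2 or without WT replicate 1. The fall was in *TEM1*, a repressor of *FT* and of gibberellin synthesis, with 103 and 99.9 CPM in *val1*, against 279 and 396 CPM in WT (log2 fold change -1.73, standard error 0.16, adjusted p = 3.56e-05). Its relative *TEM2* was lower by less than 2-fold (-0.90). *FLC* relatives differed within the clade: log2 fold changes were 3.97 for *MAF5*, 2.22 for *FLC* and 1.56 for *MAF4*, while *MAF1* (-0.19) and *MAF2* (-0.13) did not pass the test. *TOE1* (0.97) and *AP2* (0.66), targets of miR172, were higher with under 2-fold changes.

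In the list of floral integrators and identity genes, 1 gene was upregulated and 1 was downregulated of 12 tested (median -0.24). *SPL15*, which promotes flowering in the meristem under SD, rose at a low level, with 1.58 and 1.1 CPM in *val1*, against 0.516 and 0.452 CPM in WT (log2 fold change 1.46, standard error 0.41, adjusted p = 0.0174), a call lost without *val1* replicate 1 and without either WT replicate. The other called gene was *FD* (log2 fold change -1.08), which was short of 2-fold with scaling by library size alone, on TPM and without *val1* replicate 2 or WT replicate 2. *FUL* was lower with a change just under 2-fold (-0.96). *FT*, *TSF*, *AP1* and *CAL* were not tested.

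In the list of VAL and Polycomb genes, 2 of 21 were upregulated and 1 was downregulated, *VAL1* itself (median -0.02). An adjusted p of at least 0.05 was found in 14 of the 21, and in 11434 of all 21095 tested genes. Among the 14 were *VAL2* (-0.10), *CLF* (-0.04) and *LHP1* (0.08). The upregulated members were *BMI1A* and *BMI1B*, RING finger subunits of Polycomb repressive complex 1. *BMI1A* had 35.5 and 34.6 CPM in *val1*, against 11.1 and 10.9 CPM in WT (log2 fold change 1.68, standard error 0.10, adjusted p = 3.87e-06), and *BMI1B* had 22.8 and 22.2 CPM in *val1*, against 10.7 and 9.53 CPM in WT (log2 fold change 1.15).

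Seed maturation regulators, which VAL proteins close after germination, were tested only in part. Of 19 listed genes, 8 were tested, and *LEC1*, *LEC2*, *FUS3* and *ABI3* were not. *DOG1*, the main regulator of seed dormancy, rose, with 3.44 and 3.11 CPM in *val1*, against 0.0794 and 0.388 CPM in WT (log2 fold change 3.72, standard error 0.54, adjusted p = 0.000586). Other members fell: *ABI5* had 4.33 and 3.05 CPM in *val1*, against 12.1 and 10.9 CPM in WT (log2 fold change -1.65), and the storage protein gene *SESA1* had 8.02 and 10.3 CPM in *val1*, against 26.6 and 33.5 CPM in WT (log2 fold change -1.71). *EM1*, an embryo protein of late maturation, fell as well (-2.47).

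The gibberellin pathway changed in both directions, 5 of 18 up and 4 down. With DESeq2 or its size factors, and with only the 4 libraries, 4 were up, and with no filter on low counts 6 of 21 were. The list median was 0.25, and it was -0.06 without WT replicate 1. Among genes for the activating enzymes, both named here rose, but the rule for naming took only called members. The other listed genes of these steps are not described. *GA3OX1*, which makes the active hormone, had 10.7 and 11.5 CPM in *val1*, against 1.35 and 1.03 CPM in WT (log2 fold change 3.23, standard error 0.23, adjusted p = 8.54e-06). *GA20OX1*, for the step before, had 1.90 and 3.37 CPM in *val1*, against 0.397 and 0.258 CPM in WT (log2 fold change 3.02). Of the genes for inactivating 2-oxidases, a pair fell. *GA2OX6* had 23.1 and 27.7 CPM in *val1*, against 124 and 145 CPM in WT (log2 fold change -2.40, standard error 0.11, adjusted p = 1.32e-06), and *GA2OX2* had 28.4 and 37.6 CPM in *val1*, against 118 and 164 CPM in WT (log2 fold change -2.09). *GA2OX1* (0.54) and *GA2OX4* (0.40) did not pass the test. On the response side, the DELLA repressor genes *GAI* (1.61) and *RGL2* (1.34) rose, *RGL3* fell (-1.98) and *RGA* did not pass the test (0.05). The receptor gene *GID1B* had 7.90 and 7.98 CPM in *val1*, against 21.0 and 23.7 CPM in WT (log2 fold change -1.49).

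In the auxin list, 6 of 26 were upregulated and 1 was downregulated (median 0.53). The synthesis genes *YUC1*, *YUC2* and *YUC6* and the transporter genes *PIN3* and *PIN4* rose. *PIN4* had 55.8 and 76.2 CPM in *val1*, against 28.4 and 24.6 CPM in WT (log2 fold change 1.32), and *YUC2* had 1.38 and 1.82 CPM in *val1*, against 0.437 and 0.162 CPM in WT. Early response genes went both ways: *IAA4* had 21.3 and 22.2 CPM in *val1*, against 8.50 and 8.05 CPM in WT (log2 fold change 1.40), and *IAA2* had 38.2 and 41.1 CPM in *val1*, against 145 and 184 CPM in WT (log2 fold change -2.05, standard error 0.12, adjusted p = 3.13e-06). Without *val1* replicate 2 or WT replicate 1, 2 were downregulated. *YUC1* was not called without the second *val1* replicate or without the first WT replicate.

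Of 16 cytokinin genes, 2 were upregulated and 2 were downregulated. The list median of 0.17 was -0.14 without WT replicate 1, when 4 were upregulated, and scaling by library size alone gave 7 upregulated. *CKX4*, which degrades cytokinin, had 15.5 and 16.7 CPM in *val1*, against 58.6 and 53.8 CPM in WT (log2 fold change -1.80, standard error 0.11, adjusted p = 3.11e-06). *LOG7*, which activates it, had 2.71 and 2.69 CPM in *val1*, against 6.00 and 6.04 CPM in WT, a fall of under 2-fold with scaling by library size alone and on TPM. The type-A response regulator genes *ARR8* (1.12) and *ARR9* (1.02) rose, but *ARR9* was under 2-fold with DESeq2 or its size factors, with only the 4 libraries and without *val1* replicate 2 or WT replicate 2.

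Of 19 greening regulators and chlorophyll synthesis genes, 5 were upregulated, all of them transcription factors, and 0 were downregulated (1 without *val1* replicate 2). *BBX15* had 24.5 and 23.7 CPM in *val1*, against 5.16 and 5.07 CPM in WT (log2 fold change 2.23, standard error 0.12, adjusted p = 2.06e-06), and *BBX14* had 17.9 and 22.5 CPM in *val1*, against 5.16 and 5.01 CPM in WT (log2 fold change 1.99). *GLK2* had 63.0 and 61.4 CPM in *val1*, against 17.4 and 18.4 CPM in WT, and *GLK1* rose by 1.34 on the log2 scale. The chlorophyll enzyme genes were all within 2-fold, from *HEMA1* (-0.70) to *PORC* (0.66). Of 31 photosystem, antenna and Rubisco genes, 0 were upregulated and 0 were downregulated (median 0.15), with 1 upregulated without WT replicate 1. At an adjusted p below 0.05 alone, 13 of them were higher and 0 were lower, where 23.6% of all genes were higher and 22.2% were lower, from the small subunit gene *RBCS1B* (log2 fold change 0.85) and the antenna genes *LHCB4.2* (0.47) and *LHCB3* (0.47) down to *RBCS3B* (0.21). The most abundant, *LHCB1.3*, had 9446 and 8624 CPM in *val1*, against 9377 and 8929 CPM in WT (adjusted p = 0.840).

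In the circadian clock list, 2 of 18 were downregulated and 0 were upregulated (median -0.51), with 5 downregulated without *val1* replicate 1 or without WT replicate 1 and 1 without *val1* replicate 2. *RVE1*, a morning factor, had 7.29 and 7.17 CPM in *val1*, against 18.9 and 23.6 CPM in WT (log2 fold change -1.56, standard error 0.16, adjusted p = 6.08e-05). *TOC1*, an evening factor, had 38.6 and 33.2 CPM in *val1*, against 75.7 and 76.8 CPM in WT, but its log2 fold change of -1.09 was under 1 in size with scaling by library size alone, on TPM and without *val1* replicate 2. The hour of harvest was not given in the sources used here.

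Of 16 expansins, which loosen walls, 8 were upregulated and 1 was downregulated (median 1.04). *EXPA15* had 51.6 and 45.3 CPM in *val1*, against 11.7 and 13.5 CPM in WT (log2 fold change 1.94, standard error 0.17, adjusted p = 3.05e-05), and *EXPA10* had 50.3 and 55.9 CPM in *val1*, against 16.2 and 14.9 CPM in WT (log2 fold change 1.78). In the xyloglucan endotransglucosylase (XTH) family falls outnumbered rises, with 2 up and 6 down of 20 (median -0.39). At an adjusted p below 0.05 alone, 7 were higher and 9 were lower, where 23.6% of all genes were higher and 22.2% were lower. Scaling by library size alone gave 4 up and 5 down. *XTH18* had 166 and 165 CPM in *val1*, against 915 and 1007 CPM in WT (log2 fold change -2.54, standard error 0.08, adjusted p = 5.19e-07), and its relatives *XTH17* (-1.69) and *XTH19* (-2.42) fell too. *XTH31* had 28.7 and 28.4 CPM in *val1*, against 6.04 and 4.65 CPM in WT (log2 fold change 2.42), and 28.7 and 22.0 CPM in the libraries labelled *val2*. In the SAUR family, whose genes auxin induces, 2 of 12 were upregulated and 3 were downregulated, with no call as large as 4-fold. The list follows RefSeq symbols, and 1 of the 3 falls was in *SAUR21* (*AT5G01830*), whose product is annotated as an ARM repeat protein. Without it 2 of 11 were upregulated and 2 were downregulated (median -0.05). The SAUR median was -0.31, and 0.11 without WT replicate 1, and leaving out 1 library gave between 0 and 2 upregulated and 1 or 2 downregulated.

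The GLUTAMINE DUMPER proteins promote the export of amino acids from cells. Of 7 genes, 5 were upregulated and 0 were downregulated (median 1.78, the highest of the lists). *GDU3* had 13.5 and 12.7 CPM in *val1*, against 2.42 and 3.13 CPM in WT (log2 fold change 2.23, standard error 0.17, adjusted p = 1.45e-05), and *GDU4* had 14.0 and 12.9 CPM in *val1*, against 4.09 and 2.16 CPM in WT. *GDU6* (-0.17) and *GDU7* (-0.40) did not pass the test.

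Several of the genes that rose most belong to aliphatic glucosinolates, sulfur compounds made from methionine that defend against insects, so 27 genes of that pathway were gathered after the values were seen. Of the 26 that were tested, 17 were upregulated and 1 was downregulated (median 1.3), a count that includes the genes for which the list was made. The MYB regulators came first: *MYB29* had 142 and 122 CPM in *val1*, against 32.4 and 38.6 CPM in WT (log2 fold change 1.89, standard error 0.17, adjusted p = 3.47e-05), and *MYB28* had 156 and 117 CPM in *val1*, against 60.3 and 52.6 CPM in WT (log2 fold change 1.27). In chain elongation, *BCAT4* had 560.1 and 551 CPM in *val1*, against 235 and 283 CPM in WT, with a log2 fold change of 1.1 that was 0.97 without WT replicate 1, and *IPMI1* had 110.0 and 105 CPM in *val1*, against 19.9 and 17.5 CPM in WT (log2 fold change 2.52). In core synthesis, *CYP79F1* had 327 and 372 CPM in *val1*, against 94.7 and 110.1 CPM in WT (log2 fold change 1.77), and the glutathione transferase gene *GSTF11* had 48.3 and 51.4 CPM in *val1*, against 8.30 and 8.30 CPM in WT (log2 fold change 2.59). *AOP2*, a side chain gene that the Col-0 reference annotates as a transcribed pseudogene, had 52.7 and 42.4 CPM in *val1*, against 4.84 and 3.88 CPM in WT (log2 fold change 3.45, standard error 0.23, adjusted p = 5.35e-06). The exception was the transporter gene *GTR1*, which also carries jasmonate and gibberellin and had 272 and 306 CPM in *val1*, against 1194 and 1366 CPM in WT (log2 fold change -2.15, standard error 0.10, adjusted p = 1.10e-06). The myrosinase genes *TGG1* (-0.17) and *TGG2* (-0.12) did not pass the test.

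Markers of other tissues were examined for a difference in what was dissected. At an adjusted p below 0.05 alone, 23.6% of all genes were higher and 22.2% were lower. Of 10 root markers, 2 passed the filter, and the summed level of the 5 with counts was 1.42 and 2.08 CPM in *val1*, against 0.596 and 0.646 CPM in WT. Of 10 floral organ markers, 3 passed, and the 6 with counts had sums of 1.34 and 2.11 CPM in *val1*, against 2.38 and 2.94 CPM in WT. Root and flower markers were thus near 0 in all 4 libraries, and the call of the root gene *WOX5* was lost without *val1* replicate 2 or either WT replicate. The 8 epidermis markers summed to 2116 and 2515 CPM in *val1*, against 2032 and 2162 CPM in WT, with 0 called (1 without *val1* replicate 1) but 4 higher and 0 lower at an adjusted p below 0.05.

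The 10 xylem markers summed to 106 and 169 CPM in *val1*, against 224 and 211 CPM in WT. None of them was called, but 5 were lower at an adjusted p below 0.05, and 4 were called lower without *val1* replicate 2. The 8 phloem markers had 0 upregulated and 0 downregulated members (median -0.23, 1 downregulated without WT replicate 1) and 3 that were lower at an adjusted p below 0.05, with sums of 256 and 219.7 CPM in *val1*, against 273 and 284 CPM in WT. Among 7 guard cell markers, *KAT2* (log2 fold change 1.67) and *KAT1* (1.16) rose, *KAT1* not without *val1* replicate 1 or WT replicate 2. Of 10 trichome markers, *EGL3* rose, with 17.9 and 16.1 CPM in *val1*, against 6.31 and 5.82 CPM in WT (log2 fold change 1.49, standard error 0.13, adjusted p = 2.81e-05). Of the 10, 8 had an adjusted p of at least 0.05 and 1 was lower (median 0.09). The trichome markers summed to 99.7 and 108 CPM in *val1*, against 110 and 108 CPM in WT. Of 8 senescence markers, *SAG29* rose at a very low level (log2 fold change 4.88), with 0.527 and 1.78 CPM, against 0.0794 and 0 CPM, *val1* first. The other 7 did not pass the test (list median -0.03), among them *SAG12* (-0.90). Without *val1* replicate 2 no senescence marker was called, and without WT replicate 1 there were 2. The part of tissue proportions in the gene lists above was not tested.

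Motifs were counted in the 300 bases before the annotated start of each gene, on both strands, as a description. RY (CATGCA), the motif that VAL1 reads, stood in 16.2% of upregulated genes (202 genes), 9.5% of downregulated genes and 8.87% of genes not called, against 9.36% over all. The rapid stress response element CGCGTT stood in 1.93% of upregulated and 8.44% of downregulated genes, with 3.44% over all. The W-box, here TTGACC or TTGACT, which WRKY proteins bind, stood in 26.1% of upregulated and 43.8% of downregulated genes, with 31.8% over all. The G-box CACGTG differed little, with 7.7% and 9.16% against 7.89%. E2F motifs (TTTCCCGC, TTTGGCGC, TTTCGCGC or TTTGCCGC) stood in 3.29% of upregulated and 0.964% of downregulated genes, with 1.61% over all. RY was thus most frequent before genes that rose, and RSRE and W-box before genes that fell, while a match is not evidence of binding. RSRE stood before 0 of the 23 genes named as the largest falls, whether by fold, by CPM or among non-coding genes. It stood before 0 of the 18 hypoxia genes, 0 of the 21 immunity genes and 1 of the 55 WRKY genes. Jasmonate genes (7.69%) and touch genes (13.3%) had higher shares, as had the DNA replication genes (15%), which rose.

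**Figure D5:**
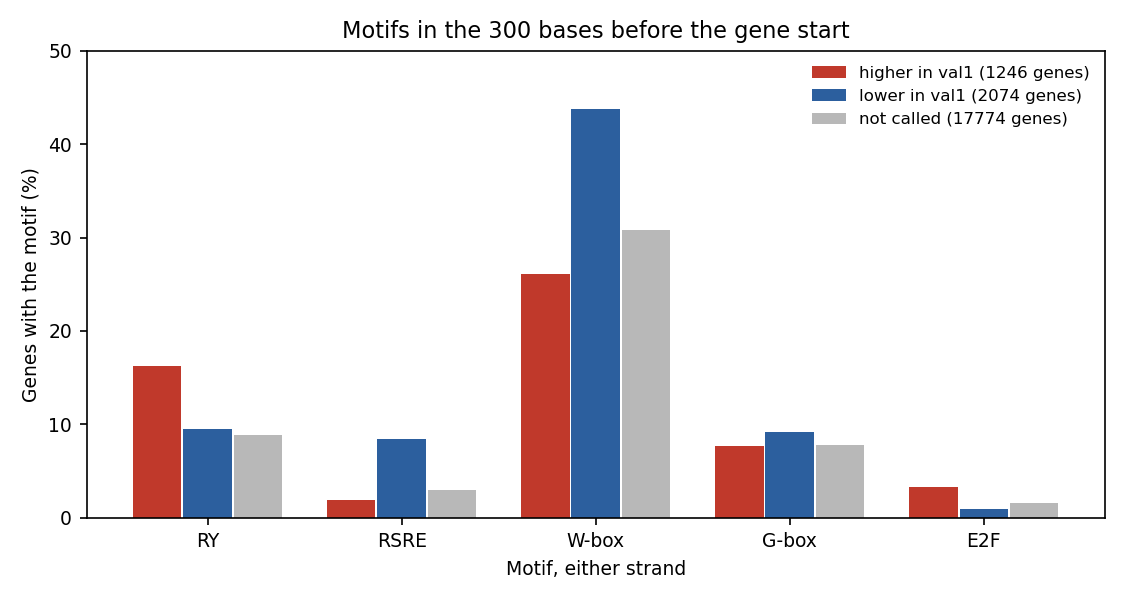
Share of genes whose 300 bases before the start hold each motif on either strand, for genes higher in *val1*, genes lower in *val1* and genes not called. RY is most frequent before higher genes (16.2%), and RSRE (8.44%) and the W-box (43.8%) before lower genes.

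By list, E2F motifs stood before 10 of the 20 replication genes (50%), RY before 6 of the 15 stomatal genes (40%) and 6 of the 18 gibberellin genes (33.3%), W-boxes before 64.9% of cysteine-rich receptor-like kinase genes, and G-boxes before 5 of the 26 jasmonate genes (19.2%). Of the replication genes with E2F, *MCM4*, *MCM5*, *ORC3* and *POLA* were not called and the others were. Of the stomatal genes with RY, only *EPF2* and *EPFL9* were called. All jasmonate genes with a G-box were downregulated. Other lists had as high or higher shares: RY stood before 50% of the 8 epidermis markers and 37.5% of the 8 seed maturation genes, and the G-box before 50% of the seed maturation genes, 38.9% of the 18 clock genes, 28.6% of guard cell markers and 22.7% of the stress ERF and zinc finger genes. The following stretches are those of the called members of 3 lists with the largest change that hold E2F, RY or G-box, with the first match and up to 20 bases on each side, in the direction of the gene and with the motif in capitals. For replication genes they show the E2F motif close to the start, 13 bases before it in *ORC1A* (chr4:8422140-8422172), 9 in *ORC2* (chr2:15758572-15758600) and 46 in *MCM6* (chr5:18010686-18010733).
ORC1A: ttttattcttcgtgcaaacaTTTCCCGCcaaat
ORC2: ggaaagacgaagaaaaacgcGCGGGAAAa
MCM6: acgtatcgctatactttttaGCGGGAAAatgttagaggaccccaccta
For stomatal genes they show RY before the peptide genes *EPF2* (chr1:12472571-12472616) and *EPFL9* (chr4:7587298-7587343).
EPF2: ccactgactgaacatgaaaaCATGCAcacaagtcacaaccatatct
EPFL9: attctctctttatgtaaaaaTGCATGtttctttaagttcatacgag
For jasmonate genes they show the G-box, the site of MYC factors, before *JAZ8* (chr1:10596322-10596351), *JAZ7* (chr2:14572976-14573021) and *JAZ3* (chr3:6119547-6119592).
JAZ8: gtgtggaaaaaaacattttcCACGTGagag
JAZ7: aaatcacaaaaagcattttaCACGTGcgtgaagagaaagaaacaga
JAZ3: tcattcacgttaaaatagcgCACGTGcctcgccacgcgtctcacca
All coordinates are those of TAIR10.1.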

How the data were processed

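Poly(A) RNA of 2 libraries per genotype was read with a stranded kit. Per the paper's methods and the labels, the authors trimmed reads with cutadapt, aligned them to TAIR10 with STAR and deposited estimated counts per gene from StringTie (Araport11 annotation) (whole numbers in the file) and a TPM table of 16383 genes. Of 24369 entries, 77 with no gene identifier were left out of library sizes and tests, between 0.00191% and 0.00266% of the counts. Some genes are listed at 0 in 1 replicate and well covered in the other.

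Genes with a count minimum of 10 (filterByExpr) were scaled by TMM and fitted over the 6 libraries with edgeR 4.0.16 in R 4.3.3 (quasi-likelihood test, Benjamini-Hochberg adjustment over 21140 genes, organelle genes included). The biological coefficient of variation was 10.7%, with 3 residual degrees of freedom. Standard errors were worked back from the test, as the size of the log2 fold change over the square root of the F statistic. Differentially expressed genes (DEGs) had an adjusted p below 0.05 and at least a 2-fold change. Alternatives used DESeq2 1.42.0, limma 3.58.1 on log2(TPM + 1) and log2(TPM + 0.1), other filters and scalings, and each library left out. The scripts were tested on simulated data.

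Members and lists were chosen with earlier results of these data known. Genes were named by a rule: the 12 largest changes each way by fold and the 8 by CPM among DEGs that averaged 10 CPM or more and whose genotypes did not overlap, up to 4 DEGs per list, up to 5 genes switched on or off and 3 non-coding genes each way. Where a list had no DEG that averaged at least 1 CPM, its member with the highest mean CPM was named. Members named beyond this rule, among them the other members that were not called, were chosen after their values were seen. Of the lists, that of aliphatic glucosinolates was also drawn up after the values were seen. Chromosome coordinates, gene classes and bases before the start are from RefSeq (TAIR10.1), where all 24186 nuclear identifiers matched. Across genes, the deviations of replicate 1 from its genotype mean correlated at 0.031 between *val1* and WT. The labels do not say whether the replicate numbers pair the libraries, and this value cannot decide it.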

Additional observations from a re-analysis of the deposited data

How the results depend on the processing

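Scaling by library size alone gave 1975 upregulated genes, against 1246 with TMM, and log2(TPM + 1) gave 1297 downregulated genes, against 2074. An adjusted p below 0.05 alone gave 4988 higher and 4673 lower genes. DESeq2 called 1086 genes up and 2059 down. Leaving out 1 library in turn gave between 1105 and 1200 upregulated genes, of which between 969 and 1027 were shared with the full set, and between 1797 and 2039 downregulated genes, of which between 1724 and 1883 were shared. With the replicate number as a block, 1226 genes were upregulated and 2078 were downregulated. Whether the numbers pair the libraries is not given in the labels, so this fit says nothing on the design.

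Of the 156 genes named by the rule, 136 kept their direction and call under every alternative that could be run for them. Genes named beyond the rule, such as *SPL15*, *CRK4* and *SAG29*, are not in this count. Signs turned for genes that were not called: *LHCB1.3* had a log2 fold change of 0.195 with scaling by library size alone and between -0.0875 (without *val1* replicate 1) and 0.0466 (without *val1* replicate 2) when 1 library was left out, *PAO* had 0.00299 with scaling by library size alone, and *PDF1* had between -0.0785 (without *val1* replicate 2) and 0.246 (without *val1* replicate 1). The causes were not tested. With 2 libraries per genotype, changes near 2-fold are uncertain. Such calls were lost under some alternatives in abundant genes such as *TCH4* as well as in genes of low counts such as *LOG7*.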
